A study of Mus musculus with 6 samples.

Results

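The DNA replication machinery is described here as 42 genes whose products license replication origins, unwind the duplex, copy it, load the sliding clamp, join the lagging strand and supply nucleotides. They were chosen by gene symbol from the 53342 Ensembl genes of the deposited table, and all 42 were found in it. RNA sequencing had measured gene expression in dental pulp of male C57BL/6 mice aged 3 months. The 3 WT samples (numbered 2, 4 and 5) were compared with 3 samples from homozygous Mmp13-/- mice (numbered 1, 2 and 6), which lack the collagenase MMP13 and for which no tissue-specific driver is named. The sample labels call the latter group MMP13KO and name molars and a column kit, while the study's methods name incisors and TRIzol. In the sample titles the word molar stands with the WT samples only, and the MMP13KO titles name no tooth. A difference of tooth could therefore not be told apart from genotype. The comparison asks how the transcripts of this machinery differed in pulp that lacked MMP13.

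A cell copies its genome once per division. The origin recognition complex marks the start sites in G1, CDC6 and CDT1 load the MCM helicase there, and in S phase CDC45 and the GINS complex switch the helicase on so that the polymerases can follow. Most of these genes are transcribed more strongly in dividing than in resting cells, many of them under E2F transcription factors, and in adult pulp most odontoblasts and fibroblasts are not dividing.

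The promoters of the members were searched for the E2F-type letters TTTCCCGC, TTTCGCGC, TTTGCCGC and TTTGGCGC on both strands. RefSeq windows from 250 bases before to 50 bases after the transcript start (GRCm38.p6) were matched by symbol for 34 of the 42 members. At least 1 match was found in 14 of these 34 (41.2%), against 704 of 27025 genes with a window (2.6%). In 9 of the 14 a match lay before the start, and those stretches are given here 5′ to 3′ on the strand of the gene because they show the letters found more often among the members than among all genes. Capitals mark the matches, and matches that overlap run together as 1 stretch of capitals.
Cdc6: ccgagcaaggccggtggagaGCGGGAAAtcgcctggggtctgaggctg
Gins3: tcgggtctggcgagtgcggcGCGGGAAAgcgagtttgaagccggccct
Mcm5: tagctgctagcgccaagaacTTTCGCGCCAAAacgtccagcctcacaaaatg
Mcm6: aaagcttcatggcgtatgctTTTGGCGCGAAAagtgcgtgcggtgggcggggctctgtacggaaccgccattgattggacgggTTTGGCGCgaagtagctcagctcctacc
Mcm7: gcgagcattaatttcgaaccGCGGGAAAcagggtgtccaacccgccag
Orc1: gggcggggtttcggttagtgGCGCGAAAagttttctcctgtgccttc
Orc3: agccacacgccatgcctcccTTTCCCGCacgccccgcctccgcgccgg
Pola1: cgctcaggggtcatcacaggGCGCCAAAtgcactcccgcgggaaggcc
Rfc3: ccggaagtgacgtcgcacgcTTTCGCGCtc

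The stretches lie at chr11:98907993-98908040 (plus strand) for Cdc6, chr8:95633498-95633545 (plus strand) for Gins3, chr8:75109336-75109387 (plus strand) for Mcm5 and chr1:128359725-128359835 (minus strand) for Mcm6. Those of the others lie at chr5:138172021-138172068 (minus strand) for Mcm7, chr4:108579407-108579453 (plus strand) for Orc1, chr4:34614956-34615003 (minus strand) for Orc3, chrX:93632266-93632313 (minus strand) for Pola1 and chr5:151651209-151651238 (minus strand) for Rfc3. Mcm6 held 3 matches, 2 of which overlap, and Mcm5 held 2 that overlap. Cdt1, Lig1, Mcm3, Pold1 and Pole2 had matches after the start and none before it. The letters CCAAT, counted separately on both strands whether or not they touched an E2F-type match, stood in 22 of the 34 members (64.7%) and in 41.1% of all genes with a window. A match describes the letters and is no evidence of a bound factor.

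Values below are normalized counts, which are the authors' estimated counts per gene divided by each sample's TMM-scaled library size and brought to a common depth, and they are always given for WT samples 2, 4 and 5 and then for Mmp13-/- samples 1, 2 and 6. Genes were called higher or lower at an adjusted p under 0.05 in the quasi-likelihood test of edgeR, adjusted by Benjamini-Hochberg over all 24534 genes that passed the filter on low counts, and each adjusted p below comes from that test. All 42 members passed the filter, and the lowest estimated count of any member in any sample was 26.7 (Gins1). A permutation test of 3 against 3 samples cannot give a two-sided p below 0.1, so none was used for single genes. In bulk tissue, fewer cells of a type and less RNA per cell cannot be told apart.

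Library totals were 28442936 to 29980236 counts in WT and 21561420 to 26547121 in Mmp13-/-. Mmp13 itself stood at 1000, 1061.4 and 818 in WT and at 8.76, 29.8 and 63.4 in Mmp13-/- (log2 fold change −4.96, SE 0.46). Mmp13-/- sample 6 stood apart from the other samples. The 1459 protein-coding odorant and vomeronasal receptor genes, which serve smell and not pulp, summed to 17.9 to 20.8 CPM (counts at an equal total for every library) in WT, to 308 and 357 in Mmp13-/- samples 1 and 2 and to 1200 in sample 6. The log2 fold change also followed transcript GC content across 16983 protein-coding genes (Spearman's rho −0.56, a description across genes that share the same 6 samples). Values after each sample was corrected for GC content, which brought that rho to −0.03, are given with those of each role and each gene list. The median log2 fold change over all genes tested was 0.33 after this correction and 0.1 without it.

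Most of the replication genes were higher in Mmp13-/- pulp. Of the 42 members, 28 rose (27.3% of all genes tested did so), 2 fell (24.3% of all genes) and 12 did not pass the test. More than 2-fold increases were called for 20 members (20.4% of all genes) and a more than 2-fold decrease for 1, Pold2 (9.68% of all genes). The median log2 fold change was 0.95 over the members and 0.10 over all genes tested, and 35 members had a positive value. With DESeq2 or with no filter, where many genes of low count enter, the median of all genes (1.11 and 1.3) lay above that of the members (0.91 and 0.85). With limma on the deposited log2 values 15 members rose, and the median was 0.85 over the members and 0.65 over all genes. The share of all genes called with limma is not given. In 28 members all Mmp13-/- samples lay above all WT samples (31.8% of all genes), and in 3, Pold1, Pold2 and Rpa1, they lay below (29.1% of all genes). After GC correction 30 members rose (26.7% of all genes) and none fell (9.31% of all genes), with a median of 1.0 against 0.33 over all genes. The count hides an exchange of members, since 23 of the 28 remained, 5 were lost (Orc3, Orc4, Orc5, Prim1 and Pole2) and 7 were gained (Cdt1, Mcm7, Pold1, Rfc1, Rfc2, Fen1 and Lig1).

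**Figure D1:**
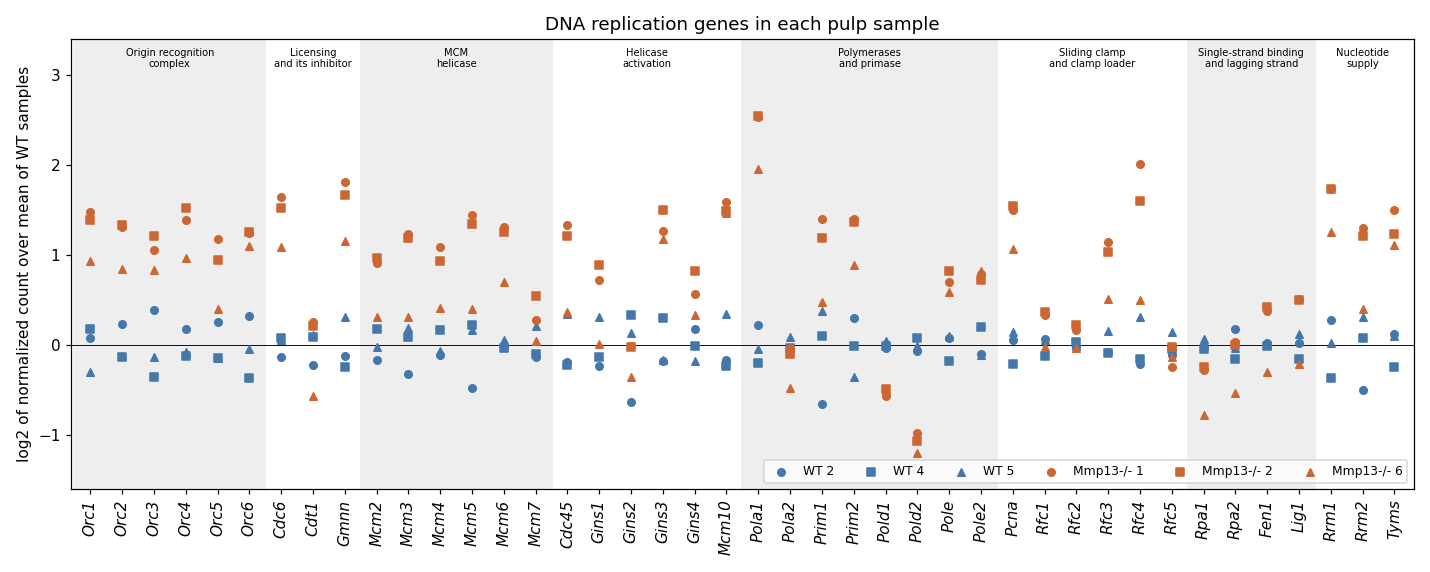
The log2 ratio of each normalized count to the mean of the WT samples (vertical axis) is plotted for the 42 genes, ordered by role along the horizontal axis, with the 3 WT samples in blue and the 3 Mmp13-/- samples in orange. Orange points lie above all blue points in 28 genes, and the orange triangle (Mmp13-/- sample 6) is the lowest orange point in 39 of 42.

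Sample 6 carried a smaller increase than the other Mmp13-/- samples. The median log2 ratio of the members to the WT mean was 1.16 in Mmp13-/- sample 1, 1.10 in sample 2 and 0.41 in sample 6, while the WT samples stood at −0.04, −0.04 and 0.05. Members above the WT mean numbered 36, 35 and 30 of 42 in the same Mmp13-/- samples. Sample 6 had the lowest value of its genotype in 39 of the 42. As a share of all counts, the members summed to 425 to 449 CPM in WT, to 905 and 859 in Mmp13-/- samples 1 and 2 and to 435 in sample 6, so on that scale sample 6 lay inside the WT range. Without sample 6, 32 members rose, Mcm7, Gins1, Rfc1 and Lig1 being the additions, and 2 fell. In that fit the median log2 fold change was 1.11 over the members and 0.07 over all genes tested. The share of all genes called in it is not given.

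The origin recognition complex, the assembly of 6 subunits that marks origins, was higher in all of its members, with a median log2 fold change of 1.19. Orc1, the subunit whose abundance cycles with division, stood at 44.3, 47.6 and 34.1 in WT and 117, 110 and 80.0 in Mmp13-/- (log2 fold change 1.30, SE 0.27, adjusted p = 0.0029). Orc2, a core subunit, stood at 257, 199 and 201 in WT and 543, 549 and 392 in Mmp13-/- (log2 fold change 1.18, SE 0.19, adjusted p = 0.000699). Orc6, the smallest subunit, stood at 125, 77.5 and 96.8 in WT and 236, 237 and 214 in Mmp13-/- (log2 fold change 1.20, SE 0.21, adjusted p = 0.00118). In each of these the lowest Mmp13-/- sample lay above the highest WT sample, and the increase was also called after GC correction, at 1.37, 1.0 and 1.16. Orc3 stood at 593, 353 and 414 in WT and 938, 1046 and 805 in Mmp13-/- (log2 fold change 1.04, SE 0.20, adjusted p = 0.00216). Orc4 stood at 324, 261 and 271 in WT and 748, 819 and 556 in Mmp13-/- (log2 fold change 1.31, SE 0.18, adjusted p = 0.00033). Orc5 stood at 186, 141 and 142 in WT and 355, 301 and 206 in Mmp13-/- (log2 fold change 0.88, SE 0.22, adjusted p = 0.00853). The genotypes did not overlap in these 3 core subunits either. Their transcripts had the lowest GC content of all members (36.8% to 38.6%), and after GC correction their log2 fold changes were 0.21, 0.19 and −0.04, with adjusted p = 0.266, 0.197 and 0.867 in the same edgeR test. Orc5 was also not called without Mmp13-/- sample 1 (adjusted p = 0.0544), and 29.8% of the exon bases of Orc2 overlap Nif3l1 on the other strand, from which its reads cannot be told apart because the counting is not stated to use strand.

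Of the licensing genes, Cdc6 and Gmnn rose and Cdt1 did not pass the test. Cdc6, the ATPase that joins the origin complex to load the helicase, stood at 84.7, 98.1 and 96.3 in WT and 290, 267 and 198 in Mmp13-/- (log2 fold change 1.45, SE 0.20, adjusted p = 0.000358). Cdt1, the second loading factor, stood at 159, 197 and 200 in WT and 222, 215 and 125 in Mmp13-/- (log2 fold change 0.02, SE 0.23, adjusted p = 0.946). Gmnn, which encodes geminin, the inhibitor that binds CDT1 outside G1, stood at 41.7, 38.2 and 56.3 in WT and 159, 144 and 101 in Mmp13-/- (log2 fold change 1.57, SE 0.27, adjusted p = 0.00108). Cdc6 and Gmnn showed no overlap of the genotypes, whereas Mmp13-/- samples 1 and 2 lay above all WT values of Cdt1 and sample 6 below them. Per kilobase of exon, the ratio of Gmnn to Cdt1 was 0.563, 0.416 and 0.602 in WT and 1.53, 1.44 and 1.73 in Mmp13-/-. That ratio did not overlap between genotypes, for which an exact two-sided permutation test of 3 against 3 samples cannot go below p = 0.1. Cdt1 has the higher GC content of the pair (57.8% against 49.8%), and after GC correction all 3 licensing genes were called higher, with log2 fold changes of 1.76 for Cdc6, 1.02 for Cdt1 and 1.92 for Gmnn.

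Genes of the MCM helicase, the ring that unwinds DNA at the fork, were higher in 5 of 6 cases, with a median log2 fold change of 0.91. Mcm2 stood at 332, 421 and 365 in WT and 699, 729 and 463 in Mmp13-/- (log2 fold change 0.76, SE 0.19, adjusted p = 0.00798). Mcm3 stood at 206, 273 and 294 in WT and 607, 585 and 321 in Mmp13-/- (log2 fold change 0.97, SE 0.25, adjusted p = 0.0081). Mcm4 stood at 280, 337 and 287 in WT and 642, 577 and 402 in Mmp13-/- (log2 fold change 0.85, SE 0.19, adjusted p = 0.00447). None of these overlapped between genotypes, although sample 6 lay much nearer to WT than the other Mmp13-/- samples did, and Mcm2 was not called without WT sample 2 (adjusted p = 0.0509). Mcm5 stood at 205, 334 and 321 in WT and 779, 726 and 377 in Mmp13-/- (log2 fold change 1.13, SE 0.28, adjusted p = 0.00701). Mcm6, whose promoter holds the 3 matches shown above, stood at 409, 405 and 429 in WT and 1025.9, 987 and 673 in Mmp13-/- (log2 fold change 1.11, SE 0.18, adjusted p = 0.000706). Mcm7 stood at 649, 668 and 825 in WT and 865, 1043.9 and 736 in Mmp13-/- (log2 fold change 0.31, SE 0.17, adjusted p = 0.154). Mcm5 and Mcm6 were separate between genotypes, while for Mcm7 sample 6 fell inside the WT range. After GC correction all 6 subunits were called higher, between 0.77 for Mcm4 and 1.67 for Mcm5, with Mcm7 at 0.99 and a median of 1.26. With limma on the deposited log2 values, of these genes only Mcm6 was called.

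Of the genes that switch the helicase on, 4 of 6 rose. Mcm10, which is needed for the loaded helicase to start unwinding, stood at 64.1, 61.3 and 91.5 in WT and 218, 203 and 199 in Mmp13-/- (log2 fold change 1.52, SE 0.21, adjusted p = 0.000361). It had the lowest level of any member in WT, 9.40 per kilobase of exon, and 26.9 in Mmp13-/-. Sample 6 lay close to the other Mmp13-/- samples in this gene. Cdc45, the helicase cofactor, stood at 69.8, 68.1 and 101 in WT and 200, 184 and 103 in Mmp13-/- (log2 fold change 1.03, SE 0.28, adjusted p = 0.0125). The call for Cdc45 was lost without WT sample 4 or without Mmp13-/- sample 1, with adjusted p up to 0.0592. The GINS complex joins CDC45 on the ring, and its genes gave values in both directions. Gins1 stood at 35.4, 37.9 and 51.7 in WT and 68.6, 76.8 and 42 in Mmp13-/- (log2 fold change 0.60, SE 0.32, adjusted p = 0.143). Gins2 stood at 265, 517 and 451 in WT and 408, 404 and 320 in Mmp13-/- (log2 fold change −0.12, SE 0.23, adjusted p = 0.692). Gins3 stood at 55.7, 77.3 and 56.0 in WT and 151, 177 and 142 in Mmp13-/- (log2 fold change 1.31, SE 0.22, adjusted p = 0.00112). Gins3 was separate between genotypes and Gins1 and Gins2 overlapped. Gins4 stood at 213, 186 and 166 in WT and 278, 333 and 238 in Mmp13-/- (log2 fold change 0.59, SE 0.18, adjusted p = 0.0212). Its genotypes did not overlap, yet the call was lost without WT sample 4 or 5 or Mmp13-/- sample 1 or 2, with adjusted p up to 0.143. After GC correction the same 4 genes were called higher, Mcm10 at 1.80, Cdc45 at 1.33, Gins3 at 1.5 and Gins4 at 1.05, with Gins1 at 0.68 and Gins2 at 0.57 not called. Gins2 shares 67.3% of its exon bases with Gse1 on the other strand, so its value is uncertain.

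Of the 8 polymerase and primase genes 5 rose and 2 fell. Pola1, the catalytic subunit of the polymerase that starts each new strand, stood at 131, 98.1 and 110 in WT and 652, 657 and 438 in Mmp13-/- (log2 fold change 2.37, SE 0.21, adjusted p = 5.77e-05). This was a 5.15-fold difference of means for a gene (ENSMUSG00000006678) at chrX:93304767-93632155 on the minus strand of GRCm38, and the highest log2 fold change of the 42. It was called in each of the 6 fits without a sample (2.22 to 2.54) and after GC correction (1.88). Pola2, the regulatory subunit of the same enzyme, stood at 230, 234 and 253 in WT and 233, 223 and 172 in Mmp13-/- (log2 fold change −0.19, SE 0.17, adjusted p = 0.395). Every Mmp13-/- value of Pola1 lay above 3 times the highest WT value, while Pola2 overlapped. Per kilobase of exon the ratio of Pola1 to Pola2 was 0.537, 0.394 and 0.407 in WT and 2.63, 2.77 and 2.40 in Mmp13-/-, again with no overlap and with the same limit of p = 0.1 for an exact permutation test. Prim1, the catalytic primase subunit, stood at 73.3, 124 and 149 in WT and 304, 264 and 160 in Mmp13-/- (log2 fold change 1.08, SE 0.30, adjusted p = 0.0129). Prim2, the large primase subunit, stood at 155, 125 and 98.5 in WT and 333, 325 and 233 in Mmp13-/- (log2 fold change 1.24, SE 0.22, adjusted p = 0.00129). Both were separate between genotypes, but WT values of Prim1 were widely spread, and Prim1 was not called without Mmp13-/- sample 1 (adjusted p = 0.0514) or after GC correction (adjusted p = 0.0519). Prim2 was still called after it, at 0.91, and Pola2 stood at −0.08.

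Polymerase delta, which copies the lagging strand, supplied both called decreases. Its catalytic subunit gene Pold1 stood at 458, 462 and 482 in WT and 315, 332 and 330 in Mmp13-/- (log2 fold change −0.52, SE 0.13, adjusted p = 0.00858). Pold2, its accessory subunit gene, stood at 537, 590 and 557 in WT and 284, 269 and 245 in Mmp13-/- (log2 fold change −1.07, SE 0.14, adjusted p = 0.000269). Pold1 (ENSMUSG00000038644) spans chr7:44532746-44548849 and Pold2 (ENSMUSG00000020471) chr11:5872180-5878292, both on the minus strand. All Mmp13-/- samples, sample 6 included, lay close together and below all WT samples in both genes, with SDs of 9.08 and 19.7 around means of 326 and 266. These transcripts had the highest GC content of all members, 61.0% and 58.7%. After GC correction Pold1 was called higher (0.69, adjusted p = 0.00506) and Pold2 stood at 0.01 (adjusted p = 0.972), so neither decrease held under that setting. Polymerase epsilon copies the leading strand. Its catalytic subunit gene Pole stood at 246, 206 and 250 in WT and 379, 413 and 352 in Mmp13-/- (log2 fold change 0.71, SE 0.16, adjusted p = 0.00403). Pole2, its accessory subunit gene, stood at 57.4, 71.0 and 57.0 in WT and 106, 102 and 110 in Mmp13-/- (log2 fold change 0.78, SE 0.22, adjusted p = 0.0146). Both were higher with no overlap, Pole also after GC correction (1.16) and Pole2 not (0.65, adjusted p = 0.0906). Pole2 was also lost without WT sample 2 or 5 or Mmp13-/- sample 1, with adjusted p up to 0.0745.

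**Figure D2:**
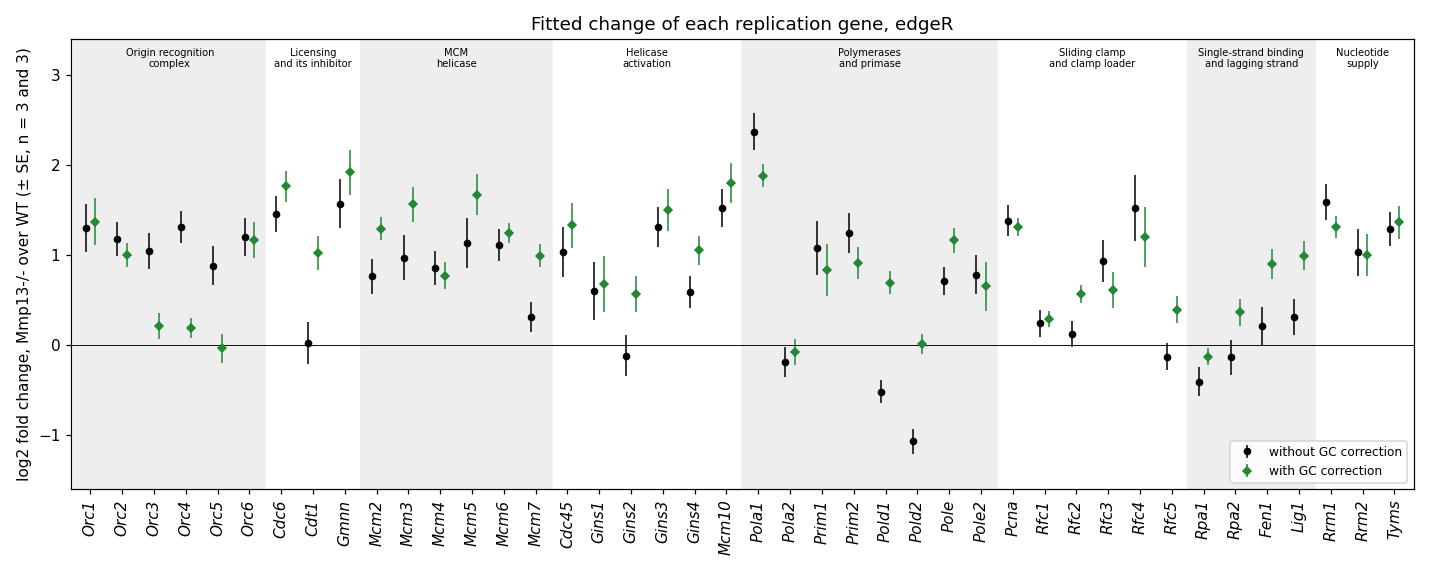
The fitted log2 fold change of Mmp13-/- over WT (vertical axis, bars ± SE, n = 3 and 3) is drawn for each of the 42 genes by role, without (black circles) and with (green diamonds) the GC correction. Pola1 is highest among the black circles at 2.37, Pold1 and Pold2 are the called decreases, and the green diamonds move Orc3, Orc4 and Orc5 toward 0 and Cdt1, Mcm7, Pold1, Fen1 and Lig1 upward.

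The gene of the sliding clamp rose, as did 2 of the 5 genes of its loader. Pcna, the ring that tethers polymerases to DNA, stood at 466, 388 and 497 in WT and 1270.1, 1313 and 939 in Mmp13-/- (log2 fold change 1.38, SE 0.17, adjusted p = 0.000221). Per kilobase of exon it had the highest level of the members in Mmp13-/- (489, against 188 in WT, where it was the third). The large loader subunit gene Rfc1 stood at 914, 798 and 905 in WT and 1100.3, 1125.7 and 861 in Mmp13-/- (log2 fold change 0.24, SE 0.15, adjusted p = 0.203). Rfc2 stood at 513, 532 and 516 in WT and 583, 608 and 507 in Mmp13-/- (log2 fold change 0.12, SE 0.14, adjusted p = 0.473). Rfc3 stood at 77.9, 77.7 and 91.9 in WT and 183, 168 and 118 in Mmp13-/- (log2 fold change 0.93, SE 0.23, adjusted p = 0.00653). Of Rfc1, Rfc2 and Rfc3, Rfc3 alone was separate between genotypes. Rfc4 stood at 34.5, 35.8 and 49.6 in WT and 161, 121 and 56.4 in Mmp13-/- (log2 fold change 1.52, SE 0.37, adjusted p = 0.00687). Rfc5 stood at 402, 423 and 483 in WT and 368, 429 and 399 in Mmp13-/- (log2 fold change −0.13, SE 0.15, adjusted p = 0.475). Rfc4 was much higher in samples 1 and 2 than in sample 6, which lay just above the WT values, and Rfc5 overlapped. After GC correction Pcna (1.31), Rfc3 (0.61) and Rfc4 (1.20) were still called, Rfc1 and Rfc2 were called higher too (0.29 and 0.56), and Rfc5 stood at 0.39. The median over all genes tested was 0.33 after that correction, so Rfc1 did not exceed it. Exon bases shared with a gene on the other strand made up 15.1% of Rfc2 (Lat2), 12.7% of Rfc4 (Eif4a2) and 10.7% of Rfc5 (Wsb2).

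Genes for single-strand binding and lagging-strand joining had no call in either direction, and their median log2 fold change was 0.03. Rpa1, the large subunit that coats single-stranded DNA, stood at 1315.4, 1299.9 and 1400.5 in WT and 1107.1, 1124.7 and 777 in Mmp13-/- (log2 fold change −0.41, SE 0.16, adjusted p = 0.0556). Every Mmp13-/- sample lay below every WT sample. Rpa2, its partner subunit, stood at 360, 286 and 312 in WT and 326, 318 and 220 in Mmp13-/- (log2 fold change −0.14, SE 0.19, adjusted p = 0.55). Fen1, the nuclease that trims Okazaki fragments, stood at 188, 184 and 186 in WT and 240, 249 and 151 in Mmp13-/- (log2 fold change 0.21, SE 0.21, adjusted p = 0.429). Lig1, the ligase that seals them, stood at 317, 281 and 342 in WT and 447, 443 and 269 in Mmp13-/- (log2 fold change 0.31, SE 0.20, adjusted p = 0.23). In Fen1 and Lig1, samples 1 and 2 lay above all WT values and sample 6 below them, and both were called higher after GC correction (0.90 and 0.99). After the same correction Rpa1 stood at −0.13 and Rpa2 at 0.36, neither called. Rpa1 passed the test as a decrease without Mmp13-/- sample 1, without sample 2, with no filter on low counts, with DESeq2 and with the study's procedure. Fen1 shares 78.8% of its exon bases with the antisense gene Gm10143 and is uncertain.

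All 3 genes of nucleotide supply rose, each more than 2-fold. Rrm1, the large subunit of ribonucleotide reductase, which makes deoxyribonucleotides, stood at 537, 343 and 450 in WT and 1472.8, 1476.3 and 1058.2 in Mmp13-/- (log2 fold change 1.59, SE 0.20, adjusted p = 0.000232). Rrm2, its small subunit made in S phase, stood at 221, 331 and 389 in WT and 771, 726 and 413 in Mmp13-/- (log2 fold change 1.03, SE 0.26, adjusted p = 0.00881). Tyms, thymidylate synthase, stood at 115, 88.5 and 112 in WT and 296, 248 and 227 in Mmp13-/- (log2 fold change 1.29, SE 0.19, adjusted p = 0.000545). The genotypes did not overlap in any of them, but sample 6 exceeded the highest WT sample of Rrm2 by little. After GC correction the 3 were still called, at 1.31, 1.0 and 1.36.

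Levels per kilobase of exon put different members first in each genotype. The length used is that of all annotated exons of a gene merged, which can exceed the length of the transcripts present. Ranks between genes are therefore approximate. In WT the 3 highest were Pold2 (296), Rpa1 (240) and Pcna (188), and in Mmp13-/- they were Pcna (489), Rrm2 (230) and Gins4 (210). Pola1 stood at rank 40 of 42 in WT and at rank 27 in Mmp13-/-, and Pola2 at ranks 28 and 42. These levels and ranks are not corrected for GC content, after which the decrease of Pold2 was not called.

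The change of the members also followed their GC content, with Spearman's rho −0.60 across the 42, which share the same 6 samples, and 0.07 after correction. Between 45% and 50% GC, the median log2 fold change was 1.16 for 16 members and 0.13 for all 4252 protein-coding genes. Between 50% and 55% the medians were 0.31 for 12 members and −0.35 for 4471 genes, and between 40% and 45% they were 1.21 for 8 members and 0.67 for 3185 genes. Below 40%, Orc3, Orc4 and Orc5 had a median of 1.04 and the 1048 genes of that range 1.33. At 55% and above, Cdt1, Pold1 and Pold2 had −0.52 and 4027 genes −0.78. By median, the members thus lay above the genes of like GC content in each range from 40% upward and below them under 40%. Single members differed from this. Pold2 (−1.07), Pola2 (−0.19) and Rpa1 (−0.41) lay below the median of all genes in their range. What part the GC trend and the receptor signal had in these values was not tested beyond the correction and subtraction given here and in the account of the processing.

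**Figure D3:**
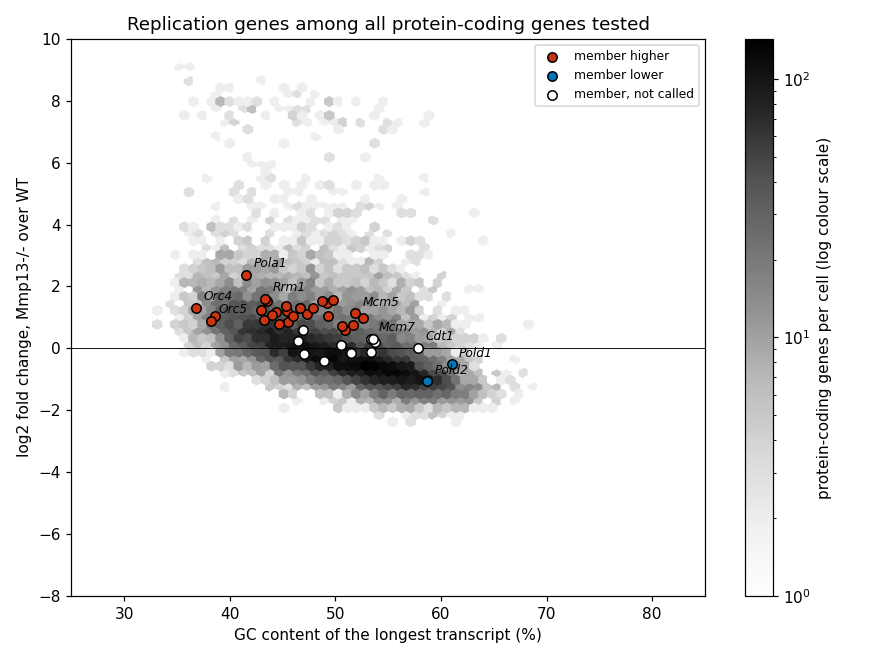
Each of 16983 protein-coding genes is binned in grey by the GC content of its longest transcript (horizontal axis, %) and its log2 fold change of Mmp13-/- over WT (vertical axis), and the members are overlaid as coloured points. Both fall with GC content, with Orc4 at 36.8% GC at the left and Pold1 at 61.0% at the right, and most members lie above the dense grey band.

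The calls were also counted by the E2F-type letters, with no test of the differences. Among members with a match 10 of 14 rose (71.4%), with a median log2 fold change of 1.0, and among those without one 13 of 20 (65.0%), with a median of 1.03. After GC correction the counts were 12 of 14 (85.7%) and 12 of 20 (60.0%). Over all genes tested that had a window, 27.6% rose among 550 with a match and 27.6% among 13760 without, and after GC correction 33.3% and 28.8%. For CCAAT, 17 of 22 members with the letters rose and 6 of 12 without, and over all genes the shares were 29.7% and 26.1%.

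Other replication genes outside the 42, from a list written by hand, were more often higher than lower. This list was also chosen with earlier results of these data known. Of its 37 genes 19 were higher (27.3% of all genes tested), 3 lower (24.3% of all genes) and 15 uncalled. Their median log2 fold change was 0.56, against 0.1 over all genes. Those with the smallest adjusted p were Dbf4, the activating subunit of the kinase that fires origins (1.73), Rpa3, the third RPA subunit (2.54), and Clspn, which encodes the checkpoint adaptor claspin (1.76). GC correction left all of these called higher, Dbf4 at 0.97, Rpa3 (34.2% GC) at 1.02 and Clspn at 2.07. Lrwd1 (−0.63), Chtf8 (−0.67) and Rnaseh2a (−0.43) were lower. After GC correction 27 of the 37 were higher (26.7% of all genes) and none lower (9.31% of all genes). Of 30 genes of E2F and G1/S control 8 were higher and 8 lower, near the shares of all genes (27.3% and 24.3%), with a median of 0.09. After GC correction 13 of these 30 were higher (26.7% of all genes) and 2 lower (9.31% of all genes). Their median was then 0.39, against 0.33 over all genes. Ccne1 and Ccna2, cyclins of S phase entry and passage, rose by 1.52 and 1.49 on the log2 scale and E2f5 by 1.28. The CDK inhibitor genes Cdkn2b (−1.16) and Cdkn1a (−1.22) and the repressor gene E2f6 (−1.09) were lower, of which E2f6 alone was still called after GC correction.

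Markers of blood-forming cells, which include dividing precursors, were higher in the same samples. Beside the counts below, 27.3% of all genes tested were higher, and 26.7% after GC correction. Of 13 erythroid precursor genes tested 11 rose (all but Hba-a2 and Klf1), with a median log2 fold change of 1.80 and summed CPM of 958 to 1488.2 in WT and 1835.2 to 5196.7 in Mmp13-/-. Haemoglobin genes among them are near-identical copies that can share reads. Of 12 B cell genes 11 rose (all but Ebf1), with a median of 2.24 and sums of 45.8 to 52.1 and 66.3 to 135 CPM. Of 10 neutrophil precursor genes 9 rose (all but Prtn3), with a median of 1.65 and sums of 126 to 268 and 341 to 1130.3 CPM. After GC correction 13 erythroid, 11 B cell and 10 neutrophil precursor genes were higher. Haematopoietic progenitor genes rose in 4 of 7 (not Gata2, Kit or Mecom), with sums of 90.2 to 100 and 104 to 171 CPM, and T cell genes in 5 of 7 (not Cd4 or Trac), with sums of 5.05 to 5.57 and 12.3 to 15.9 CPM. After GC correction 4 genes of each of these 2 lists were higher. On the CPM scale every marker list given here and below had its lowest Mmp13-/- value in sample 6. As normalized counts this did not hold for all lists. T cell genes then summed to 361, 381 and 416 in Mmp13-/- samples 1, 2 and 6. Odontoblast, pulp fibroblast and Schwann cell sums were then lowest in sample 1. Of all the markers listed, Cd3d had 0 counts in WT samples 2 and 4 and Dntt in WT sample 2. The called T cell genes had low WT means, 0.605 for Cd3d, 4.11 for Cd3e, 6.14 for Cd3g, 9.01 for Cd8a and 17.1 for Lck. Cd4, which was not called, had a WT mean of 94.6. Marker values after subtraction of the receptor signal are not given. The part of these cells in the values of the replication genes was not tested.

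Markers of the resident tissue moved in both directions. Over all genes tested 27.3% were higher and 24.3% lower, and after GC correction 26.7% and 9.31%. Odontoblast genes were 3 higher and 5 lower of 12, with summed CPM of 53981.7 to 61300.5 in WT and 15014.2 to 26625.2 in Mmp13-/-, and Dspp, which defines the odontoblast, was present in every sample. Most of that sum came from the collagen genes Col1a1 and Col1a2, which were lower (log2 fold changes −2.16 and −1.26), while Ibsp, Phex and Dspp were higher (1.56, 1.68 and 1.13). After GC correction 5 odontoblast genes were higher and 1 lower, with a median of 0.24 against −0.33 without it. Pulp fibroblast genes were 4 higher and 2 lower of 7, with sums of 14699.3 to 22859.6 and 8598.7 to 15187.4 CPM, and the counts were the same after GC correction. Ameloblast and enamel epithelium genes were 2 lower of 7 (Krt5 and Krt14), with sums of 4517.6 to 5828.5 and 3665.8 to 7126.6 CPM, and none was called after GC correction. Skeletal muscle genes, which do not belong to pulp, were 7 lower of 8 (all but Mylpf), with sums of 42383.3 to 48903.8 and 6632.3 to 21636.0 CPM, and 5 were lower after GC correction. Endothelial genes were 1 higher and 2 lower of 5 and Schwann cell genes 1 lower of 5, with sums of 116 to 228 and 66.8 to 271 CPM over all 6 samples. After GC correction 2 endothelial genes were higher and none lower, and no Schwann cell gene was called.

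**Figure D4:**
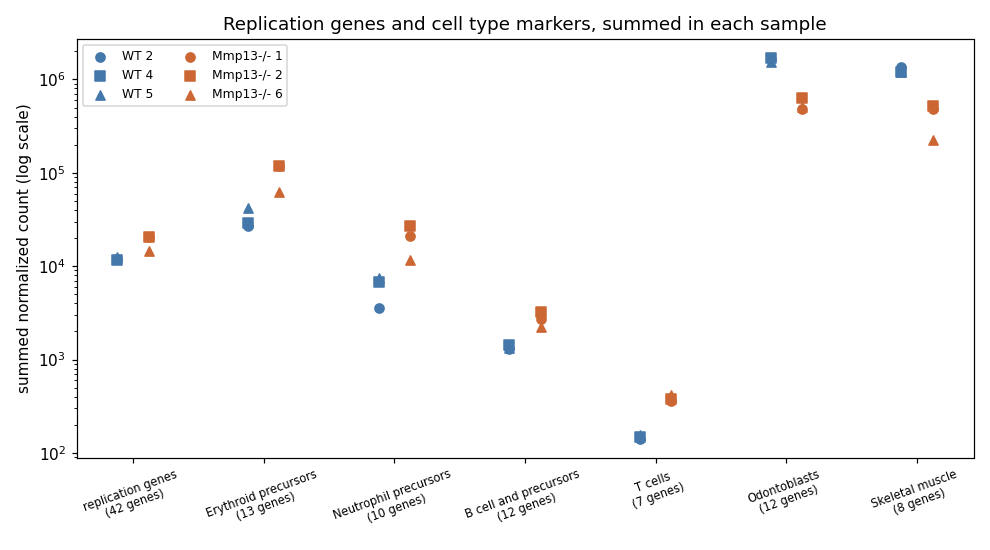
Summed normalized counts (vertical axis, log scale) of the replication genes and of 6 marker lists are plotted for each sample, WT in blue and Mmp13-/- in orange. All Mmp13-/- samples lie above all WT samples for the replication genes and the 4 blood cell lists, and below them for the odontoblast and skeletal muscle lists.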

How the data were processed

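RNA sequencing (2 × 150 bp, Illumina) measured 3 WT and 3 Mmp13-/- pulp samples, grouped by the genotype in their labels and named as independent biological samples in the study's methods. The authors used Strand NGS to turn aligned reads into the estimated counts deposited for each gene. The deposited log2 values are these counts after median-of-ratios scaling, centred per gene. The submitters' notes name mm10 and DESeq. The aligner's settings, the annotation and the strand setting are not given in the sources used here.

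After rounding to whole numbers, the counts went into edgeR 4.0.16 under R 4.3.3 (quasi-likelihood test, TMM factors, its filter by expression, Benjamini-Hochberg adjustment over 24534 genes). The scripts were tested on simulated data. Positions, exon lengths and GC content came from GENCODE M21 (GRCm38), matched by Ensembl identifier for 99.8% of genes, and promoters from RefSeq. A floor of 3 counts stood at 0.100 to 0.139 CPM, and floors cover counting error only. The text names all 42 members, and from each further list of replication and G1/S genes the 3 with the smallest adjusted p in each direction, plus genes left out of a count where 5 or fewer are. The members and lists were chosen with earlier results of these data known. A further list of reference genes is not reported here.

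Alternatives were other scaling factors (RLE, upper quartile, none), a stricter filter and none, DESeq2 1.42.0, limma 3.58.1 on the deposited log2 values, the stated procedure of the study (gene-by-gene unmoderated test, Storey's q) and each sample left out in turn. A GC correction (loess, span 0.4, genes above a mean log2 CPM of 3, used as offsets), subtraction of the receptor genes' counts per kilobase, and both together were chosen after seeing the data. Neither source gives a batch, so batch and genotype cannot be told apart.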

Additional observations from a re-analysis of the deposited data

How the results depend on the processing

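The genotypes share only 1 replicate number. No paired analysis was possible because fewer than 2 numbers are shared. Over all genes tested, the median shifted by 0.21 (log2) with upper-quartile factors and by 0.11 with total counts. It shifted by 0.54 with limma and with the study's procedure, by 1.0 with DESeq2 and by 1.2 with no filter, settings that test more genes. With DESeq2 it was 1.11 and with no filter 1.3, above the members' 0.91 and 0.85. The number of members called higher, 28, stayed between 23 and 32 under leaving out each sample, and was 15 with limma on the deposited log2 values, which lost Orc5, Mcm2, Mcm3, Mcm4, Mcm5, Cdc45, Gins4, Prim1, Pole, Pole2, Rfc3, Rfc4 and Rrm2. Leaving out each sample gave 2 to 3 lower members. Shares of all genes called are given only for the main fit and for GC correction alone. Counts of members under every other setting, background subtraction included, have no share beside them. The lower members, 2, were 1 with upper-quartile factors, 1 with total counts, 1 with limma, 0 with GC correction and 0 with background subtraction plus GC correction, and 3, with Rpa1 added, with no filter, DESeq2 and the study's procedure. Over 2-fold increases numbered 14 to 24 and the median log2 fold change 0.75 to 1.11 with a sample left out. With background subtraction 30 members were higher, with a median of 1.02 against 0.04 over all genes. With GC correction added 29 were higher, with a median of 0.97 against 0.17. Rfc3, called after GC correction alone, was not called with both.

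These log2 fold changes reversed sign. Orc5 was −0.04 with GC correction and −0.15 with background subtraction plus GC correction. Cdt1, 0.02, was −0.08 without a filter, −0.02 with DESeq2, −0.09 with limma and −0.09 with the study's procedure, and ran from −0.18 to 0.24 with a sample left out. Gins2 was 0.08 with upper-quartile factors, 0.01 with total counts, 0.00 with 10 counts in every sample, 0.57 with GC correction and 0.54 with both, and ran from −0.43 to 0.04 with a sample left out. Pola2 was 0.01 with upper-quartile factors. Pold1 was 0.69 with GC correction and 0.64 with both, and Pold2 was 0.01 with GC correction. Rfc5 was 0.08 with upper-quartile factors, 0.39 with GC correction and 0.36 with both. Rpa2 was 0.05 with upper-quartile factors, 0.00 with total counts, 0.36 with GC correction and 0.33 with both, and ran from −0.30 to 0.02 with a sample left out. The cause of these changes was not tested.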
